A study of Mus musculus with 16 samples.

Results

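TLR7-deficient AM14 B cells (Tlr7KO, labelled TLR7 KO and Tlr7-/-) were set against wild-type AM14 B cells (WT) at 0, 6, 24 and 42 h, on 8 of the 16 arrays of the series, which were chosen by genotype and matched by time. All cells were splenic B cells of AM14 mice, whose B cell receptor binds IgG. The 0 h cells were unstimulated, and the others were cultured with PL2-3, a monoclonal autoantibody, for 6, 24 or 42 h. Each genotype had 1 array at each time, so a difference at any given time has no replicate check. Each array compared the sample, in the Cy5 colour, with a common pool of unstimulated AM14 B cell RNA from all 4 genotypes of the series, in the Cy3 colour. The series also holds 4 arrays of Tlr9KO cells and 4 of cells lacking both receptors (DKO). Levels are log2 of sample over pool, so that 0 means the level of the pool, and differences are Tlr7KO minus WT on that log2 scale. All 8 arrays shared 1 slide, but the Tlr7KO arrays filled 1 row of it and the WT arrays another, so genotype and slide row cannot be told apart. The sources used here state neither sex, age, PL2-3 dose nor whether mice were pooled, and no array held cells cultured for these times without PL2-3.

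TLR7 senses RNA in endosomes, as TLR9 senses DNA there, and both signal through the adaptor MyD88. PL2-3 is an IgG against chromatin, so that its immune complexes are bound by the AM14 receptor and carried to the endosome with their nucleic acid. Both Tlr7KO and WT cells keep TLR9, and the comparison asks how far the response to such complexes differs when TLR7 is missing and TLR9 remains.

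On the WT array of 42 h, a large oval area was dim in both colours, and the count of genes apart at that time depended on it. The area, counted as all spots of this array where the local pool was low by at least 0.5 log2, held 10326 spots. Of these, 4410 were pool-bright, that is, well above background in Cy3 on 12 or more arrays. The common pool is the same RNA on every array, yet over these 4410 spots its median departure from its level across the 16 arrays was -1.22 on the log2 scale. Their median Cy3 intensity was 312 on the Tlr7KO 42 h array against 62.1 on the WT 42 h array. Their median Cy5 intensity was 795 on the Tlr7KO 42 h array against 85.3 on the WT 42 h array, over a local WT background of 36. Feature Extraction had marked 2.13% of the 10326 spots as outliers. Spots in areas where the pool departed by at least 0.5 were therefore left out on every array, as were spots whose own pool signal departed by at least 1. This removed 17.8% of the spots on the WT 42 h array, 2.75% on WT 0 h, 0.241% on Tlr7KO 6 h and between 0.0438% and 0.278% on the other 5 arrays. A share of 40.9% of spots was well above background in Cy5 on WT 42 h against 62.7% on Tlr7KO 42 h, where the other 6 arrays lay between 47% and 50.3%. This choice was made after the values had been seen, and counts with the areas kept are given beside those without them.

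**Figure D1:**
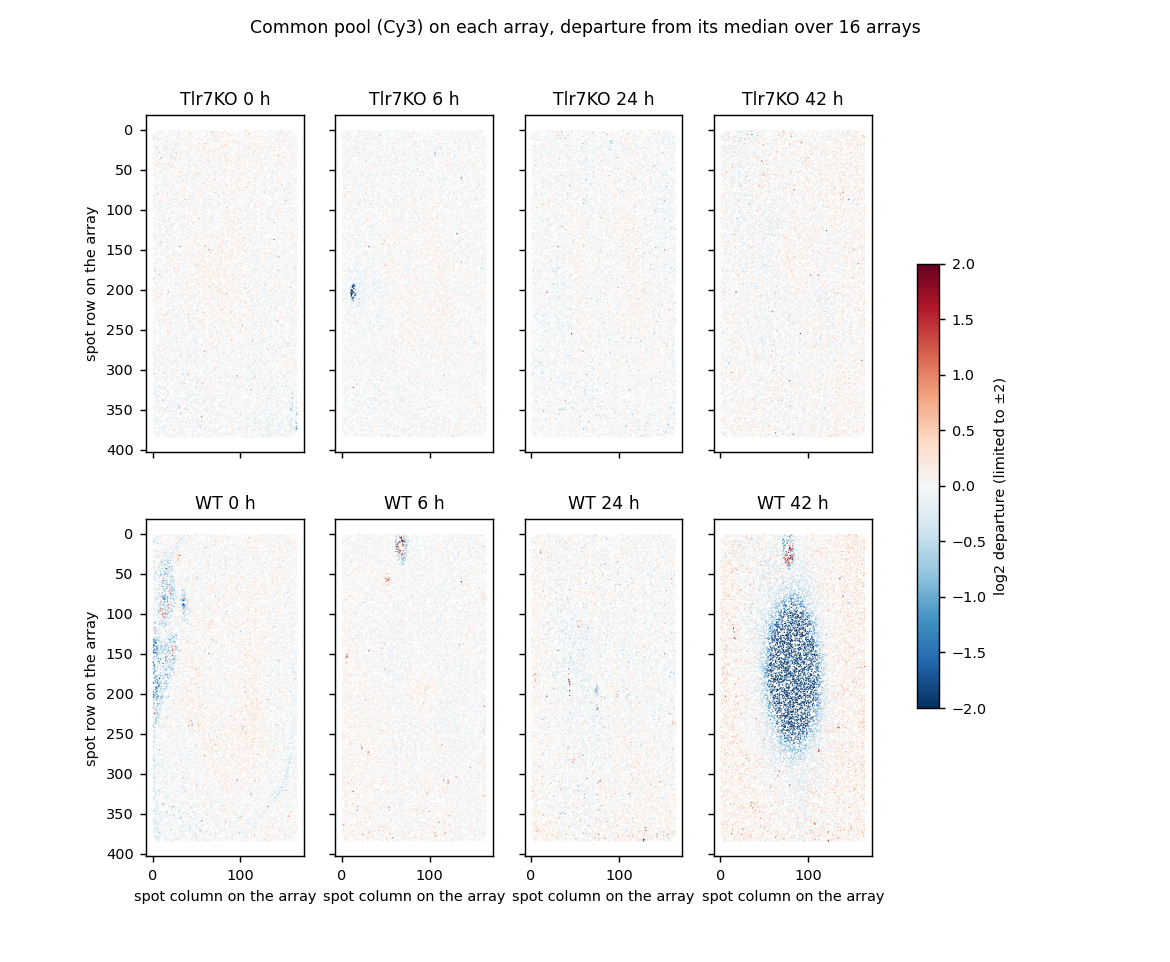
Position of each pool-bright spot on the 8 arrays (spot column across, spot row down), coloured by the log2 departure of the Cy3 pool signal from its median over 16 arrays, with Tlr7KO above WT. The oval area of WT 42 h stands at a median departure of -1.22, and smaller areas are seen on WT 0 h and Tlr7KO 6 h.

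The targeted gene was lower in Tlr7KO cells at every time. Here the brightest probe of a gene is the brightest of those with a value on all 8 arrays, where there is one. Tlr7 read by this probe stood at -0.73, -0.02, -0.2 and -0.4 in Tlr7KO cells at 0, 6, 24 and 42 h, against 0.95, 1.49, 0.9 and 0.91 in WT cells. No Tlr7KO array reached the lowest WT array. The mean was -0.34 ± 0.3 in Tlr7KO and 1.06 ± 0.28 in WT (SD over times, n = 4 each), a difference of -1.4 (2-sided exact permutation test, p = 0.0286, the smallest this test allows). That test shuffles the arrays without regard to time, and with the 4 pairs matched by time the exact p was 0.125, the smallest that 4 pairs allow. A second probe averaged -0.52 ± 0.51 in Tlr7KO (n = 4) and 1.56 ± 0.28 in WT (n = 3, 1 array missing), a difference of -2.07 (exact permutation p = 0.0286, and 0.25, the smallest possible, over its 3 time-matched pairs). The remaining probe was well above background on 1 of 8 arrays and averaged 0.13 ± 0.09 in Tlr7KO and 0.07 ± 0.09 in WT (n = 4 each, exact permutation p = 0.4). Tlr9, the receptor that both genotypes keep, averaged -0.4 ± 0.31 in Tlr7KO and -0.38 ± 0.39 in WT (n = 4 each, exact permutation p = 1).

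The first 30 of the 60 bases of each Tlr7 probe are shown because they say which part of the transcript was read, and those of Arl2bp, the gene with the largest difference, because its probes read it differently. Each is written 5′ to 3′ with mm9 coordinates of the 30 bases from the array design. Whether they lie in the deleted part of Tlr7 is not given in the sources used here.
Tlr7 brightest probe, chrX:163742893-163742922, minus strand: tctctctctctgatactgaactgtaccaga
Tlr7 second probe, chrX:163743176-163743205, minus strand: cataaatgaaggtctgaatttttcctaaca
Tlr7 remaining probe, chrX:163747244-163747273, minus strand: atgtaatgctgcttctgtatcttaaaaact
Arl2bp brightest probe, chr8:97198181-97198210, plus strand: tatagtaaacagactccgtgctgactttcc
Arl2bp second probe, chr8:97197099-97197128, plus strand: aggtgtatcctgcaaagaccctctgtgcca

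With the dim areas left out, the count of genes 2-fold apart was highest before stimulation. At 0 h, 42 genes of 12863 measured (0.327%) were at least 2-fold apart, 31 higher and 11 lower in Tlr7KO cells. After genes already 2-fold apart the same way at 0 h were set aside, 15 genes of 12651 remained at 6 h (0.119%), 14 higher and 1 lower. At 24 h, 8 genes of 13079 remained (0.0612%), 3 higher and 5 lower, the lowest count of the 4 times. At 42 h, 15 of 11586 remained (0.129%), 9 higher and 6 lower. The genes set aside numbered 6, 7 and 6 at those 3 times. With the dim areas kept, the counts from 0 to 42 h were 57, 33, 10 and 184, so that 42 h then stood out. Of those 184 genes, 169 were read from spots left out here. In the pool colour, where no genotype is compared, the 2-fold rule was also applied with the areas kept and no gene set aside. It gave 61 genes higher and 20 lower at 0 h, 3 and 33 at 6 h, and 2 and 11 at 24 h. At 42 h it gave 1204 higher and 41 lower. The ratio counted in that way gave 57, 39, 18 and 192 genes from 0 to 42 h, so the pool counts were of like size at 0, 6 and 24 h.

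Because a ratio also moves when the pool moves, each difference was set beside the Cy5 colour alone and the pool on the same 2 arrays. Of the genes 2-fold apart, 26, 6, 7 and 7 from 0 to 42 h were also at least 2-fold apart the same way in Cy5 alone with the pool within 1.5-fold. In 9, 6, 1 and 3 genes at 0, 6, 24 and 42 h the pool itself differed at least 2-fold between the arrays. Between 98.6% and 99.4% of all genes measured lay within 1.5-fold of each other at every time. The SD of the difference over genes was 0.204, 0.189, 0.161 and 0.194 from 0 to 42 h. Across genes, which are not independent replicates and share the pool, the levels correlated at r = 0.413, 0.986, 0.986 and 0.975 from 0 to 42 h. At 0 h samples and pool are the same kind of cell and levels lie near 0.

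The order of the times depended on the scaling. With each array centred on its median, a scaling that put the median difference of all genes at -0.15, 0.07, -0.19 and 0.11 at the 4 times, the counts were 41, 20, 24 and 23 from 0 to 42 h. The split at 0 h was then 15 higher and 26 lower. In Cy5 alone the counts were 70, 31, 31 and 133, with 90 higher and 43 lower at 42 h.

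**Figure D2:**
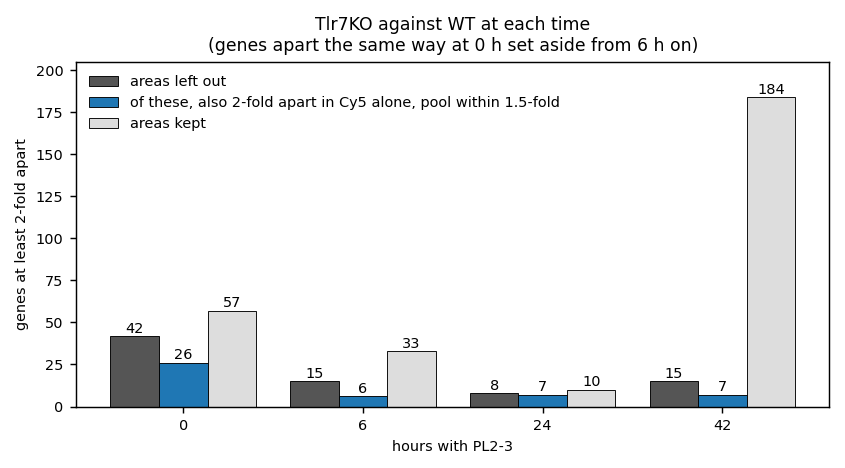
Number of genes at least 2-fold apart between Tlr7KO and WT at each time, with the areas where the pool departs left out (dark), those also 2-fold apart in Cy5 alone with the pool within 1.5-fold (blue), and with the areas kept (light). With the areas left out 0 h has the highest count (42), and with them kept 42 h does (184).

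The 5 largest positive differences at 0 h, among genes well above background in Cy5 on both arrays, were those of Pira2, Gm10693, Jchain, Wfdc21 and Rab5c. Pira2, a paired immunoglobulin-like receptor, stood at 0.9 in Tlr7KO cells against -1.8 in WT cells. Gm10693 stood at 0.59 in Tlr7KO against -1.89 in WT. Genes of the Pira family are near-identical copies, so these probes may read several of them. The second probe of each was well above background on 2 of 8 arrays for Pira2 and 1 for Gm10693, and was not measured in both genotypes at 0 h. Jchain, which joins IgM and IgA into polymers, stood at 0.78 in Tlr7KO cells against -0.98 in WT cells. Wfdc21 stood at 0.72 in Tlr7KO against -1 in WT. Rab5c, a small GTPase of early endosomes, stood at 1.64 in Tlr7KO against 0.18 in WT. In Cy5 alone these 5 differences were 3.09, 2.58, 1.95, 1.9 and 1.6, with the pool within 0.12 of equal.

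The largest negative differences at 0 h, after those of Arl2bp (-2.83) and Tlr7 (-1.68), were those of Tbc1d31 (-1.17), Nufip2 (-1.15) and S100a8 (-1.14). Nufip2, an RNA-binding protein, stood at -0.59 in Tlr7KO cells against 0.55 in WT cells at 0 h, and its differences at 6, 24 and 42 h were -0.28, 0.51 and -0.06. Its other 2 probes differed by -0.28 and -0.33 at 0 h. S100a8, a calcium-binding protein abundant in neutrophils, stood at -0.8 in Tlr7KO cells against 0.34 in WT cells. Its partner S100a9 stood at -1.03 in Tlr7KO against 0.07 in WT.

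Markers of other cell types were also compared, most closely at 0 h. Of 10 erythroid genes measured at 0 h, all 10 were higher in Tlr7KO, with a median difference of 0.46 against 0 for all genes, and 1 (Hbb-bs, a beta-globin gene, 1.18) passed 2-fold. Hbb-bs differed by 0.21, 1.09 and 0.35 at 6, 24 and 42 h. The summed Cy5 signal of this list was 314000 on the Tlr7KO array against 206000 on the WT array at 0 h. It was between 18500 and 119000 in Tlr7KO against 20600 to 109000 in WT at the later times. Of 16 myeloid genes at 0 h, 11 were higher (median difference 0.29), with Vcam1 2-fold higher and S100a8 and S100a9 2-fold lower. The summed signal of the myeloid list was 29700 in Tlr7KO against 28200 in WT at 0 h, and 6370 to 16700 in Tlr7KO against 6460 to 16700 in WT later. The medians of T cell markers (0) and of NK and plasmacytoid markers (-0.12) lay near 0 at that time. In a bulk sample, fewer cells of a type and less RNA per cell cannot be told apart, and the part of these cells in the 0 h differences was not tested. The B cell genes Cd79a and Cd79b were well above background on all 8 arrays and Ms4a1 on 7. Of the markers of other cells, 9 to 12 of 14 T cell, 15 to 16 of 16 myeloid, 8 to 13 of 14 NK and plasmacytoid and 5 to 10 of 10 erythroid genes were well above background on Tlr7KO arrays. On WT arrays the counts were 7 to 12, 11 to 16, 7 to 13 and 4 to 9.

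A test of the 0 h difference against the mean difference at the other times called 9 genes of 11674 (0.0771%, limma with Benjamini-Hochberg adjustment, adjusted p under 0.05), 8 higher (0.0685%) and 1 lower (0.00857%). The same contrast with its sign turned is the difference in response to PL2-3. Prr7, a transmembrane adaptor, exceeded the other times by 1.35 (SE 0.17, adjusted p = 0.0298), at 1.04 in Tlr7KO against -0.1 in WT at 0 h. Its differences at 6, 24 and 42 h were -0.06, -0.34 and -0.25. Rapgefl1, a guanine nucleotide exchange factor, exceeded them by 1.19 (SE 0.16, adjusted p = 0.0298), at 0.52 in Tlr7KO against -0.56 in WT. Gpr171, a G-protein-coupled receptor, was lower at 0 h than at the other times (-1.17, SE 0.15, adjusted p = 0.0298), at -0.73 in Tlr7KO against 0.3 in WT. Amy2a5, an amylase, stood at 0.56 in Tlr7KO against -0.65 in WT, where it was not well above background, so that in Cy5 the gap was at least 2.2-fold (limma adjusted p of the ratio 0.0333). This probe was well above background on 2 of 8 arrays. The second Amy2a5 probe, well above background on 0 arrays, differed by 0.26 at 0 h.

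Of the other 5 called genes, 4 differed in the pool, and Ncbp3 differed between its probes. For Col26a1, Gata3, Nos1ap and Cerkl the pool differed by -1.5, -1.18, -1.19 and -1.21 between the Tlr7KO and WT arrays of 0 h, and in Cy5 alone the differences were -0.36, -0.12, -0.37 and -0.38, which reverses their direction. Ncbp3 was called for its change of direction (1.55, SE 0.2, adjusted p = 0.0298), with 0.45 at 0 h and -0.81, -1.16 and -1.33 at 6, 24 and 42 h. Its other 2 probes lay between -0.37 and 0.15. No gene of the 9 was called in Cy5 alone, with the areas kept, or in the fit over all 16 arrays, where 0 genes were called in each. Left out in turn, the pairs of 6 h and of 24 h gave 0 calls, and without the pair of 42 h 71 genes were called, 8 of them among the 9.

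Over the 3 stimulated times together, with time as a term, 19 genes of 11582 differed (0.164%, limma, adjusted p under 0.05), 11 higher (0.095%) and 8 lower (0.0691%) in Tlr7KO cells, of which 18 are named here. Of the 19, 16 were measured at 0 h, and 14 of these already differed the same way before stimulation, 6 of them at least 2-fold. The 14 include differences of any size, and the share of all genes with the same direction at 0 h is not given here. No gene was at least 2-fold apart the same way at all of 6, 24 and 42 h while under 2-fold at 0 h, and none was 2-fold apart in opposite directions at different stimulated times. The p-values rest on the spread of the difference over 3 times and not on separate mice or cultures. Without the 42 h arrays 83 genes were called, all 19 among them, and without the 6 h or the 24 h arrays 16 each, 14 and 15 of them among the 19.

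Arl2bp, a binding partner of the small GTPase ARL2, differed most. It stood at -2.14, -2.2, -2.49 and -2.38 in Tlr7KO cells at 0, 6, 24 and 42 h, against 0.69, 0.67, 0.18 and 0.18 in WT cells. The genotypes did not overlap and the gap was about constant (stimulated difference -2.7, SE 0.09, limma adjusted p = 1.06e-07). Its second probe, whose sequence stands above, differed by -0.62, -0.78, -0.09 and -0.13 at the 4 times. Rspry1, which adjoins it, and Psme3ip1, the next gene measured on that side, differed by -0.01 and 0.03 over the stimulated times.

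Tbc1d31, a TBC-domain protein of centriolar satellites, stood at -0.79, -1.03, -0.54 and -0.05 in Tlr7KO cells, against 0.39, 0.24, 0.85 and 1.47 in WT cells. Its stimulated difference was -1.4 (SE 0.08, limma adjusted p = 3.44e-05). In both genotypes the level was highest at 42 h, and 2 further probes gave differences between -0.86 and 0.17. Tlr7 itself differed by -1.31 over these times (SE 0.09, limma adjusted p = 1.21e-04). Armcx4, an X-linked armadillo repeat gene, stood at -0.59, -0.57, -0.2 and -0.47 in Tlr7KO cells against 0.15, 0.11, 1.15 and 0.37 in WT cells (stimulated difference -0.96, SE 0.12, limma adjusted p = 0.00664). It was well above background on 1 of 4 Tlr7KO arrays and on all 4 WT arrays. In the Cy5 channel it was at least 1.91-fold, 1.89-fold and 2.05-fold lower at 0, 6 and 42 h, where the ratio to the pool differed by -0.74, -0.68 and -0.84, so the bound holds for the Cy5 channel and not for the ratio.

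Erdr1, a gene near the end of the X chromosome whose probe may read several copies, differed by a similar amount at each time. It stood at 0.76, 1.52, 0.06 and 0.21 in Tlr7KO cells, against -0.36, 0.31, -0.8 and -0.85 in WT cells (stimulated difference 1.05, SE 0.09, limma adjusted p = 6.18e-04). Gpat2, an acyltransferase of glycerolipid synthesis, stood at 0.45, 0.56, 1.03 and 0.67 in Tlr7KO cells, against -0.4, -0.42, -0.1 and -0.13 in WT cells (0.97, SE 0.09, limma adjusted p = 6.64e-04). Both genes separated the genotypes on every array pair. Arf5, a small GTPase of the Golgi, stood at 0.14, -0.02, -0.02 and 0.28 in Tlr7KO cells against -0.82, -0.58, -0.74 and -0.56 in WT cells (0.71, SE 0.08, limma adjusted p = 0.00565). All 3 Arf5 probes were higher in Tlr7KO wherever measured, by 0.37 to 0.96.

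Some called genes differed by at most 0.34 at 0 h and by more after stimulation. Gm3448 stood at 0.07, 2.15, 2.95 and 2.34 in Tlr7KO cells against -0.27, 1.19, 2.16 and 1.46 in WT cells (stimulated difference 0.88, SE 0.08, limma adjusted p = 6.64e-04), and its second probe differed by 0.89 and 1.04 at 24 and 42 h. Lonrf3, a RING finger protein, stood at -0.05, 3.11, 2.24 and 1.5 in Tlr7KO cells against 0.13, 2.49, 1.83 and 0.65 in WT cells (0.63, SE 0.09, limma adjusted p = 0.0298). Both genes stood higher at every stimulated time than at 0 h in each genotype. From Feature Extraction's processed signals the Gm3448 difference was -0.01 at 24 h and -0.2 at 42 h, which reverses it. Cd6, a scavenger-type receptor of lymphocytes, stood at 0.31, 1.3, 1.05 and 1.49 in Tlr7KO cells against -0.02, 0.81, 0.48 and 0.72 in WT cells (0.61, SE 0.09, limma adjusted p = 0.0201), while its second probe lay between -0.13 and 0.18. None of these 3 genes passed the test of a difference in response. Plbd1, a phospholipase B-like protein, stood at 0.16, -2.47, -0.89 and -0.4 in Tlr7KO against -0.07, -2.96, -1.41 and -1.05 in WT (0.55, SE 0.08, limma adjusted p = 0.0222).

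The probes of Rnu1b6 and Rnu2-10, both spliceosomal RNA genes, were lower in stimulated Tlr7KO cells. Rnu1b6, a U1 small nuclear RNA gene, stood at -2.41, -4.15 and -2.76 in Tlr7KO cells at 6, 24 and 42 h, against -1.48, -1.79 and -0.71 in WT cells (stimulated difference -1.78, SE 0.2, limma adjusted p = 0.00445). Rnu2-10, a U2 gene, stood at -1.28, -2.09 and -1.67 in Tlr7KO cells against -0.64, -0.99 and -0.15 in WT cells (-1.09, SE 0.13, limma adjusted p = 0.0067). Neither had a Tlr7KO value at 0 h, so they could not be set aside. Ncbp3, a cap-binding protein, had the same order, at -1.36, -2.36 and -1.92 in Tlr7KO against -0.55, -1.2 and -0.59 in WT (-1.1, SE 0.1, limma adjusted p = 6.64e-04), by its brightest probe only. U1 and U2 genes are near-identical copies, so the probes cannot tell members of each family apart.

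**Figure D3:**
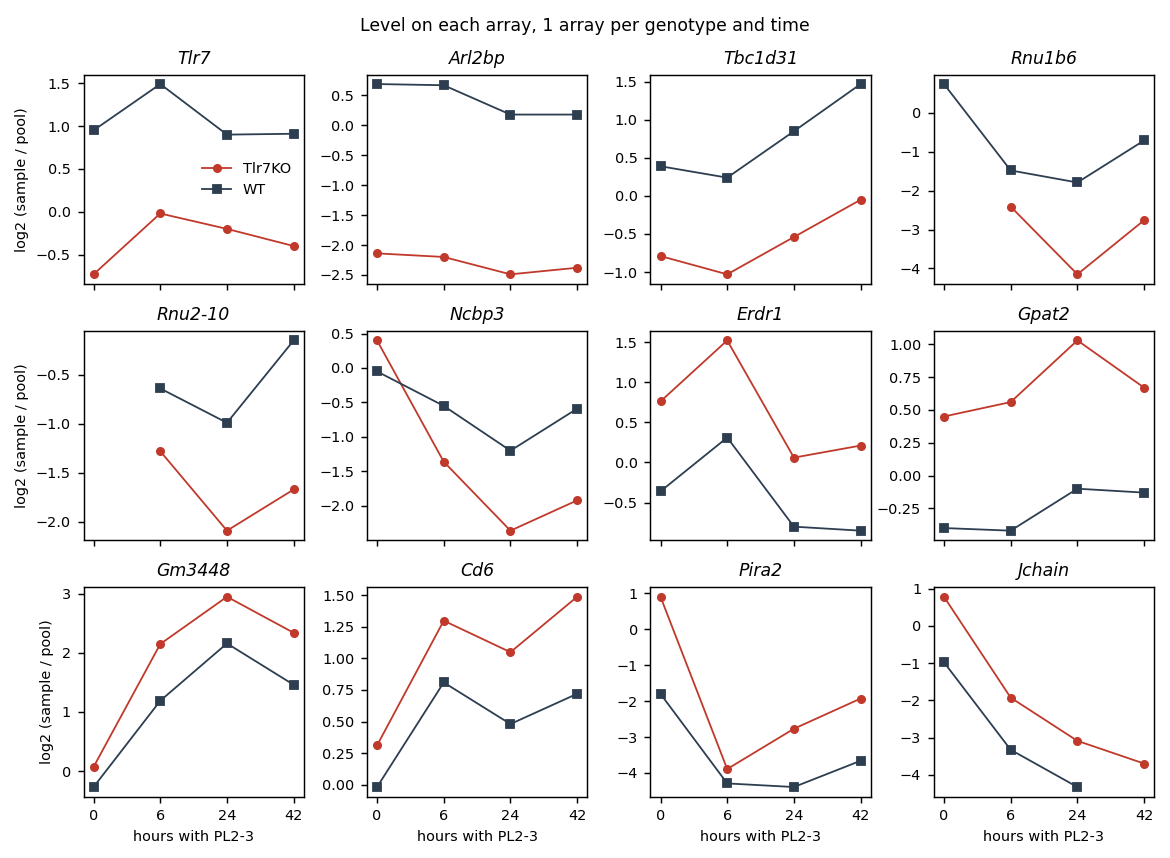
Level of 12 genes on each of the 8 arrays (log2 of sample over pool against hours with PL2-3), with Tlr7KO in red circles and WT in dark squares. Arl2bp, Tbc1d31, Erdr1 and Gpat2 keep their gap from 0 h on, Rnu1b6, Rnu2-10 and Jchain lack 1 or 2 values, and Ncbp3 crosses after 0 h.

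The remaining named genes were Pira2, S100a8, 9030025P20Rik and Btbd9. Pira2 stood at -3.89, -2.77 and -1.93 in Tlr7KO cells at 6, 24 and 42 h, against -4.29, -4.39 and -3.66 in WT cells (stimulated difference 1.25, SE 0.2, limma adjusted p = 0.0467). The WT arrays of 6 and 24 h were not well above background for it, so these sizes are not exact, and in the Cy5 channel Pira2 was at least 1.6-fold and 3.48-fold higher in Tlr7KO at those times. S100a8 was well above background on no stimulated Tlr7KO array and on 1 stimulated WT array (-0.66, SE 0.09, limma adjusted p = 0.0211). Only its 6 h pair therefore gives a fold, at least 1.65-fold lower in the Cy5 channel. In Cy5 alone, which is scaled between arrays in another way, the S100a8 difference at 6 h was -0.59 in log2. That gap is smaller, so the bound holds for its own scaling only. 9030025P20Rik stood at 0.09, -0.23 and 0.55 in Tlr7KO cells against -1.09, -1.08 and -0.34 in WT cells (0.97, SE 0.09, limma adjusted p = 6.64e-04). Btbd9, a BTB-domain protein, differed by 0.66, 0.76, 0.84 and 0.75 at 0, 6, 24 and 42 h (stimulated difference 0.78, SE 0.08, limma adjusted p = 0.00127), while its 3 other probes lay between -0.52 and 0.28.

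By chromosome, 4 of the 19 called genes lie on X, which holds 3.32% of the genes tested, and 3 lie on chromosome 17, which holds 5.37%. On chromosome 17 Btbd9 lies next to Glo1, the glyoxalase of methylglyoxal removal, and Glo1 next to Dnah8, an axonemal dynein. This neighbourhood was singled out after the values were seen. Glo1 differed by 0.55, 0.8 and 0.59 at 0, 24 and 42 h, with no Tlr7KO value at 6 h. Dnah8 differed by 0.7, 0.19, 1 and 0.3 from 0 to 42 h (limma adjusted p = 0.402 over the stimulated times). Zfand3, the next gene on the Btbd9 side, differed by 0.04 over the stimulated times, and Glp1r, beyond Dnah8, by 0.04, 0.1 and -0.18 at 0, 6 and 24 h. On X, the neighbours of Tlr7 did not pass the test: Tlr8, another RNA-sensing receptor, differed by 0.21 (limma adjusted p = 0.72) and Prps2 by -0.14 (limma adjusted p = 0.873).

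Of the 19 genes, 8 (Tlr7, Arl2bp, Tbc1d31, Erdr1, Gpat2, Gm3448, 9030025P20Rik and Btbd9) were also called with the dim areas kept. Cy5 alone called 16 genes, 11 of them shared with the 19 and these 8 included, and the mean pool difference of the 19 was at most 0.34 in size. From the processed signals of Feature Extraction 0 genes were called, and 1, Arl2bp, when all 12 stimulated arrays of the series entered the fit.

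At 6 h, 6 genes of 11674 (0.0514%) differed from the other times, all higher in Tlr7KO (limma, adjusted p under 0.05). For Ccdc201 and Cyp2j13 the 6 h difference in Cy5 alone was 1.43 and 1.15. Ccdc201 stood at 1.59 in Tlr7KO against 0.21 in WT at 6 h, where WT was not well above background, and the Cy5 channel was at least 2.63-fold higher (limma adjusted p of the ratio 0.0172). Cyp2j13, a cytochrome P450, stood at 1.38 in Tlr7KO against 0.12 in WT, where it was not well above background, and in Cy5 the gap was at least 2.2-fold (limma adjusted p of the ratio 0.025). Its other 2 probes, well above background on 0 arrays, differed by 0.05 and 0.06. For the other 4 (E330014E10Rik, Dusp8, Ttll5 and Gm6569) the pool differed by -2.1, -1.49, -1.72 and -2.07 between the 2 arrays, and the Cy5 differences were -0.72, 0.03, -0.53 and -0.87. None of the 6 was called in Cy5 alone, and with the areas kept 11 genes were called, 3 of them among the 6.

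Other 6 h differences had no test of their own that passed. Plac8 stood at -0.36 in Tlr7KO against -1.44 in WT, and its second probe differed by 0.77. Rasgef1a, an exchange factor of the RAP GTPases, stood at 1.61 in Tlr7KO against 0.56 in WT. Cd93, an early B cell surface marker, stood at -1.34 in Tlr7KO against -2.25 in WT, having differed by 0.67 at 0 h. The circadian regulator Ciart stood at 2.08 in Tlr7KO against 0.59 in WT, but the pool differed by -1.08 and Cy5 alone by 0.15. Among the negative differences, Ifi203-ps, a pseudogene of the interferon-inducible p200 family, stood at -0.82 in Tlr7KO against 0.41 in WT. Kynu, kynureninase of tryptophan breakdown, stood at -2 in Tlr7KO against -1.07 in WT, while its second probe differed by -0.17. The probe of the interferon gene Ifna14 stood at -0.78 in Tlr7KO against 0.18 in WT, with a pool difference of 0.62 and -0.21 in Cy5 alone. Slc25a32, a mitochondrial carrier, stood at 1.26 in Tlr7KO against 2.18 in WT, with a pool difference of 1.45 and 0.61 in Cy5 alone, which reverses it. Genes dim on 1 of the 2 arrays also had larger or like differences, picked out after their values were seen. These were Syce1 (1.67) and Mid1 (1.6) at 6 h, Syce1 (1.15) and Gm5150 (-1.14) at 24 h and Fxyd7 (1.47) at 42 h.

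At 24 h, 0 genes of 11674 (0%) differed from the other times by limma (362 at an unadjusted p under 0.05), and 0 in Cy5 alone, with the areas kept or from the processed signals, against 10 with median centring and 3 with no filter on dim probes. Slc16a3, the monocarboxylate transporter that exports lactate, stood at 1.37 in Tlr7KO against 0.38 in WT at 24 h. Its differences at 0 and 6 h were -0.06 and -0.08. Cd3g, a chain of the T cell receptor complex, stood at 0.15 in Tlr7KO against -0.63 in WT. Usp36, a nucleolar deubiquitinase, stood at 0.2 in Tlr7KO against 0.98 in WT, while its other 2 probes differed by -0.05 and -0.19. Lyz2, a myeloid lysozyme, stood at -1.52 in Tlr7KO against -0.76 in WT. As whole lists at 24 h, T cell markers had a median difference of 0, with 5 of 9 above 0. Myeloid markers had a median difference of 0.05, with 10 of 15 above 0, so these 2 genes do not stand for their lists. The 5 lowest p-values belonged to Maged1, Krtap19-4, E2f8, Ahnak and Setd1b and did not pass.

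At 42 h, 2 genes of 11674 (0.0171%) differed from the other times, against 256 with the areas kept, and 2 of those 256 are these 2. Cdh16, a cadherin known from kidney epithelium, stood at 3.07 in Tlr7KO against 1.6 in WT (difference from the other times 1.5, SE 0.17, limma adjusted p = 0.0399), and Cy5 alone gave 1.55 at that time. At 0, 6 and 24 h Cdh16 differed by -0.05, -0.16 and 0.1. Stard6, a lipid-transfer protein (1.46, SE 0.18, limma adjusted p = 0.0399), differed by -2.1 in the pool and by -0.78 in Cy5 alone, and its second probe by 0.01. With only areas departing by at least 1 left out, 12 genes were called, these 2 included. In Cy5 alone 8 were called, 1 of these 2 among them.

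Other 42 h differences had no test of their own that passed. Pfas, an enzyme of purine synthesis, stood at 1.87 in Tlr7KO against 0.66 in WT, and had differed by 0.22 at 24 h. Osbpl3, an oxysterol-binding protein, stood at 2.48 in Tlr7KO against 1.33 in WT, and its second probe differed by 0.58. Cxcr3, a chemokine receptor under T-bet control, stood at 0.23 in Tlr7KO against -0.71 in WT. Nusap1, a spindle protein, stood at 4.29 in Tlr7KO against 3.18 in WT, with a pool difference of -0.71 and 0.26 in Cy5 alone. Cracdl stood at 1.23 in Tlr7KO against 2.43 in WT. COX1, the mitochondrially encoded subunit of cytochrome oxidase, stood at -2.89 in Tlr7KO against -1.86 in WT, with a pool difference of 0.51 and -0.26 in Cy5 alone. Vcam1, an adhesion molecule of stromal and myeloid cells, stood at -4.4 in Tlr7KO against -3.42 in WT. Gzma, a granzyme of NK and T cells, stood at -4.22 in Tlr7KO against -3.39 in WT. As whole lists at 42 h, myeloid markers had a median difference of -0.01, with 5 of 13 above 0. NK and plasmacytoid markers had a median difference of -0.12, with 1 of 8 above 0.

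Gene lists of the B cell response had like median levels in the genotypes. The shares of all genes at least 2-fold apart either way, before setting aside, were 0.327%, 0.166%, 0.115% and 0.181% from 0 to 42 h. Of all genes, 0.241%, 0.134%, 0.0535% and 0.104% were 2-fold higher in Tlr7KO, and 0.0855%, 0.0316%, 0.0612% and 0.0777% were 2-fold lower. The median difference of all genes was between 0 and 0.02. Of 18 MYC and ribosome biogenesis genes, none was 2-fold apart at any time. Their median level was -0.04, 2.55, 2.12 and 1.21 in Tlr7KO cells at 0, 6, 24 and 42 h, against -0.11, 2.69, 2.2 and 1.11 in WT cells. Myc itself stood at 0.02, 4.74, 3.18 and 1.83 in Tlr7KO cells, against -0.38, 4.61, 3.34 and 1.59 in WT cells. Egr2, an antigen receptor target, stood at -0.13, 5.03, 4.61 and 1.95 in Tlr7KO cells, against 0.05, 5.18, 4.44 and 1.59 in WT cells. The antigen receptor immediate early list had 0 of 11 to 14 measured members 2-fold apart at each time.

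The 24 DNA replication genes had a median level of 0, 0.28, 2.02 and 2.27 in Tlr7KO cells against 0.04, 0.25, 2.08 and 2.29 in WT cells, with 16 to 23 measured. None was 2-fold apart, and at 24 h 4 of 23 lay above 0 (median difference -0.17). Pcna, the replication clamp, stood at -0.01, 1.33, 1.76 and 1.72 in Tlr7KO cells against 0.02, 1.29, 2.03 and 2.21 in WT cells, where the 42 h pool differed by 1 and Cy5 alone by 0.71. The median level of mitosis genes was 0.09, -0.13, 2.01 and 3.94 in Tlr7KO cells against -0.07, -0.14, 2.11 and 3.65 in WT cells. Of the 16 mitosis genes measured at 42 h, 1 (Nusap1) was 2-fold apart, and the median difference was 0.1. Cholesterol and fatty acid synthesis genes had a median level of -0.05, 2.08, 1.95 and 2.03 in Tlr7KO cells against -0.14, 2.04, 1.8 and 1.99 in WT cells.

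**Figure D4:**
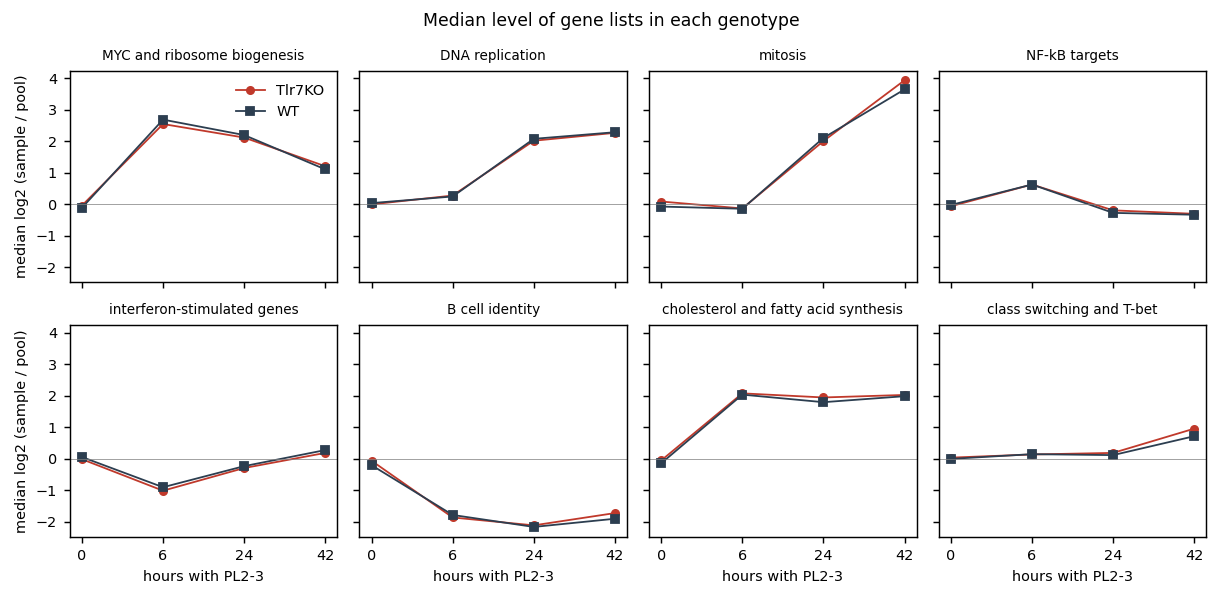
Median level of 8 gene lists (log2 of sample over pool) against hours with PL2-3, Tlr7KO in red circles and WT in dark squares. In each list the genotypes follow the same course, and the widest gap among these 8 medians is that of mitosis genes at 42 h (3.94 in Tlr7KO against 3.65 in WT).

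Lists that innate receptors are known to control also lay near 0. Of 25 interferon-stimulated genes, 17 to 24 were measured at each time and none was 2-fold apart. Their median difference was -0.11, -0.11, 0.01 and -0.18 from 0 to 42 h, and at 42 h 3 of 17 lay above 0. Usp18, a negative regulator of interferon signalling, stood at -0.06, -1.29, 0.68 and 0.76 in Tlr7KO cells against 0.22, -0.9, 0.67 and 1.02 in WT cells. Of 20 NF-kB targets no measured member was 2-fold apart, with medians between 0 and 0.06. Nfkb1 stood at -0.39, 1.84, 0.42 and -0.07 in Tlr7KO cells against -0.32, 2.12, 0.45 and -0.29 in WT cells. Of 20 cytokines and chemokines, 10 to 12 were measured and none was 2-fold apart. Il6 stood at -0.01, 1.67, 2.68 and 1.99 in Tlr7KO cells against 0.01, 1.16, 2.53 and 1.89 in WT cells, and the chemokine Ccl5 at 6 h at -1.23 in Tlr7KO against -0.53 in WT, with 0.04 in Cy5 alone. In the TLR pathway list, which here leaves out Tlr7 itself, no measured member was 2-fold apart, and the largest was Hsp90b1, the chaperone of Toll-like receptors, at -0.45 at 42 h.

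B cell and differentiation genes gave a few single members. The B cell identity list had no member 2-fold apart, with a median level of -0.06, -1.86, -2.11 and -1.72 in Tlr7KO cells against -0.2, -1.78, -2.16 and -1.9 in WT cells. Tbx21, which encodes T-bet, stood at -0.17, 0.53, -0.17 and -0.13 in Tlr7KO cells against -0.03, 0.92, -0.08 and -0.67 in WT cells. Of the plasma cell genes, only Jchain was 2-fold apart, at 0, 6 and 24 h (1.76, 1.4 and 1.24), and its WT value at 42 h was left out. Il2ra, the alpha chain of the IL-2 receptor, stood at 0.37 in Tlr7KO against -0.76 in WT at 0 h, where the pool differed by -0.7 and Cy5 alone by 0.33, and differed by -0.27 and -0.48 at 24 and 42 h. Marginal zone and B1 genes had a median difference of 0.28 at 0 h, with 9 of 10 above 0, and 0.12, 0.06 and 0 at 6, 24 and 42 h. Replication-dependent histones had a median difference of -0.22 at 42 h, where 1 of 13 lay above 0. Of the members of the 26 lists that were tested, S100a8 and the sex-linked genes named below were the only ones called in a limma comparison. Members without a value on every array of a fit, such as Jchain, Irf7 and Junb, were not tested.

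The same loss of Tlr7 was set against a background without TLR9, as DKO minus Tlr9KO, whose arrays lie on another slide and share no array with the Tlr7KO and WT pair. Of the 18 genes measured in both among the 19, 15 differed in the same direction, by any size. The share of all genes that did so is not given here, so this count has no background to be read against. Tlr7 itself differed by -1.31 with TLR9 and by -1.18 without it. Erdr1 differed by 1.05 and 0.95, 9030025P20Rik by 0.97 and 0.86, Armcx4 by -0.96 and -1.17, and Pira2 by 1.25 and 1.46, with TLR9 and without it. The genes of opposite direction included Ncbp3, at -1.1 with TLR9 and 0.85 without it (limma adjusted p = 0.0956 for the difference), and Rnu2-10, at -1.09 and 0.3 (limma adjusted p = 0.993). Rnu1b6, not measured without TLR9 at 42 h and so not tested, differed by -0.93 and -2.36 with TLR9 at 6 and 24 h and by 1.46 and 0.88 without it. Tbc1d31 differed by -1.4 with TLR9 and by -0.17 without it (limma adjusted p = 0.993 for the difference).

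A test of that difference called 5 genes of 12992 (0.0385%, limma, adjusted p under 0.05), 3 with a positive (0.0231%) and 2 with a negative sign (0.0154%). Arl2bp differed by -2.7 with TLR9 and by -0.18 without it (difference of the differences -2.52, SE 0.13, limma adjusted p = 1.19e-04). The others were Eif2s3y and Ddx3y, on the Y chromosome, Xist, which silences an X chromosome in females, and Slc7a4, an amino acid transporter-like protein. Xist was well above background on all 4 arrays of Tlr7KO, WT and DKO cells and on none of the 4 of Tlr9KO cells. Ddx3y and Eif2s3y were well above background on the 4 Tlr9KO arrays alone. The Tlr9KO arrays thus differ from the other 3 genotypes in these sex-linked transcripts, while Tlr7KO and WT cells had the same pattern. In DKO minus Tlr9KO, Tlr7 loss and this difference in pattern cannot be told apart. That holds also for the X-linked genes Tlr7, Erdr1, Armcx4 and Lonrf3.

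**Figure D5:**
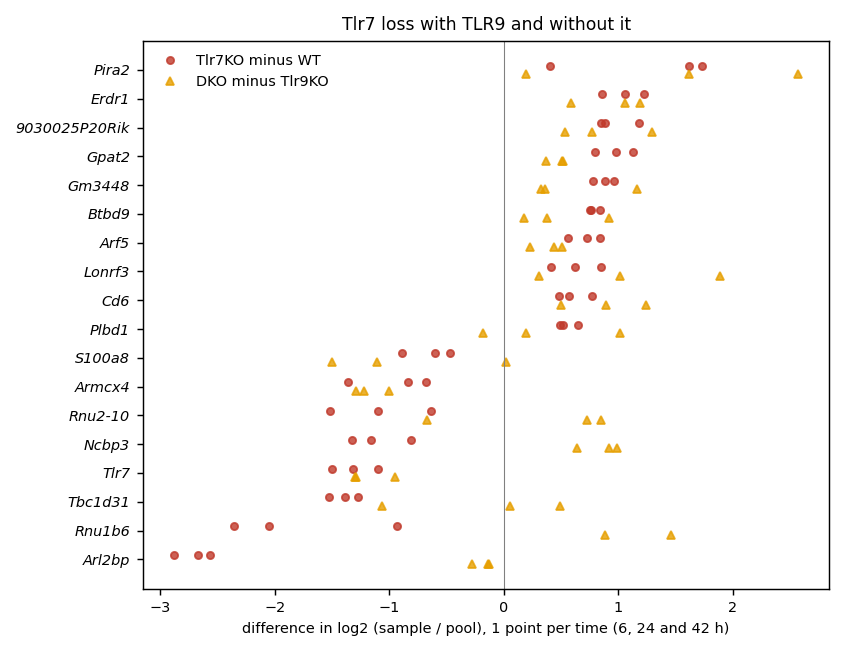
Difference in log2 of sample over pool for the 18 named genes called between Tlr7KO and WT after stimulation, 1 point for each of 6, 24 and 42 h, with Tlr7KO minus WT in red circles and DKO minus Tlr9KO in yellow triangles. Arl2bp lies between -2.88 and -2.57 with TLR9 and between -0.28 and -0.13 without it, while Erdr1 and Tlr7 overlap.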

How the data were processed

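Per the file headers, Agilent Feature Extraction 10.1.1.1 was used to quantify the scans, and the authors deposited for each spot the mean and local background intensity in both colours, processed intensities and quality flags. The deposited series table matched log10 of the processed Cy5 over Cy3 signal within 5e-04 and was not used for the results. Per the labels, Cy5 held the sample and Cy3 the common pool, with no dye swap. Array positions are mm9, per the file headers.

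Intensities were background-corrected with normexp (offset 50) and normalised by loess within each array with limma 3.58.1 in R 4.3.3, to log2 of sample over pool. Outlier-marked spots were set missing. Spots where the pool departed from its median over the 16 arrays were left out: by 0.5 log2 as the local median over 9 rows and 5 columns, with at least 5 spots well above background in Cy3 on 12 or more arrays, or by 1 log2 in the spot itself. Repeated probes were averaged. Each gene was read by its brightest probe among those with a value on all 8 Tlr7KO and WT arrays. A gene with no such probe was read by its brightest one. Of 55681 distinct probes, 27318 were named by accession, 3527 by symbol and 553 by an older symbol, and 24283 stayed unnamed.

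Genes were tested with limma if their probe was well above background, in Cy5 or Cy3, on 3 or more of the arrays compared. They also needed a value on every array of the fit. A gene left out on WT 42 h was therefore untested in every fit that used that array, whichever time was asked about. Tests were 2-sided, with time as a term, Benjamini-Hochberg adjustment and a threshold of 0.05. Single times have no test: genes at least 2-fold apart, with the Cy5 signal well above background on at least 1 of the 2 arrays, were counted. With 1 array for each genotype and time, p-values measure the spread over times. Where a probe was not well above background in 1 group, a fold is given as "at least", in the Cy5 channel alone after between-array scaling, from the higher of the dim probe's own signal and the lowest signal well above background on that array, and is open to dye bias without dye swaps. No spot was saturated. The fits were tested on simulated data.

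The genes named were Tlr7, the 10 largest differences each way at 6, 24 and 42 h and the 5 largest at 0 h, with Cy5 well above background on both arrays of that time and genes already 2-fold apart the same way at 0 h set aside from the later times, the 10 largest called genes each way of each limma comparison or its 5 lowest p-values, and up to 5 members of each list. The comparison and the lists were chosen with earlier results of these data known. Alternatives were median centring, processed signals, Cy5 alone, other filters, the mean over probes, leaving out each time, other arrays in the fit, robust moderation, other thresholds, and the areas kept or fewer left out, the last pair added after the data were seen, as was the time-matched test of the Tlr7 probes. Some genes are not reported here.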

Additional observations from a re-analysis of the deposited data

Results flagged for a closer look

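Each gene here differed in its Tlr7KO minus WT difference between times, or in the effect of Tlr7 loss with TLR9 against without it, by a limma test of that difference, and no explanation was weighed. For Tlr7 loss with TLR9 against without TLR9 the differences were 4.97 for Eif2s3y, 3.95 for Ddx3y, 3.41 for Slc7a4, -3.36 for Xist and -2.52 for Arl2bp. Except for Arl2bp, these sizes are not exact, since 1 or more groups were not well above background. Eif2s3y and Ddx3y were well above it on 0 of 4 Tlr7KO, WT and DKO arrays and on 4 of 4 Tlr9KO arrays, Xist on 0 Tlr9KO arrays, and Slc7a4 on 4 Tlr7KO and 0 WT arrays. Of these 5, Eif2s3y, Ddx3y and Xist are sex-linked and had a different pattern in Tlr9KO cells alone. Slc7a4 differed by -0.09 between Tlr7KO and WT and by -3.51 between DKO and Tlr9KO.

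For 0 h against the other times the differences were 1.55 for Ncbp3, 1.39 for Col26a1, 1.35 for Prr7, 1.19 for Gata3 and for Rapgefl1, -1.17 for Gpr171, 1.14 for Nos1ap and for Amy2a5, and 1.12 for Cerkl. For Col26a1, Gata3, Nos1ap and Cerkl the pool differed at least 2-fold on that pair of arrays.

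For 6 h against the other times they were 1.82 for E330014E10Rik, 1.75 for Dusp8, 1.68 for Ccdc201, 1.64 for Ttll5, 1.55 for Gm6569 and 1.43 for Cyp2j13. In all of these but Ccdc201 and Cyp2j13 the pool differed at least 2-fold. For 42 h they were 1.5 for Cdh16 and 1.46 for Stard6, and for Stard6 the pool differed at least 2-fold.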

How the results depend on the processing

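Every array is replicate 1, so the replicate number cannot serve as a block and no pairing by replicate was possible. The genotypes were instead matched by time, which is a term in each limma fit. With time-matched pairs, the exact test of the Tlr7 probes gave -1.4 (p = 0.125) for the brightest and -1.83 (p = 0.25) for the second. These are the smallest p-values that 4 and 3 pairs allow. The time-matched test could therefore make no call whatever the values, and it does not decide whether the Tlr7 difference depends on the pairing. The cause of each change below was not tested.

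Over the stimulated times, against 19 calls, limma called 42 genes with median centring, 0 with Feature Extraction's processed signals, 8 with the areas kept, 1 with all 12 stimulated arrays, and between 16 and 83 with 1 time left out, the 83 without the 42 h arrays. The difference in response, against 9 calls, gave 18 with median centring, 52 with no filter on dim probes, 4 with the strict filter, 14 with the mean over probes, and 0 with processed signals, Cy5 alone, the areas kept or all 16 arrays. Leaving out 1 time gave 0 to 71, the 71 without 42 h. The 0 h contrast, being the same with its sign turned, gave the same 18, 52, 4, 14 and 0. At 6 h, against 6 calls, there were 16 with no filter, 11 with the areas kept, and 0 with processed signals, Cy5 alone or the strict filter. At 24 h, against 0, there were 10 with median centring and 3 with no filter. At 42 h, against 2, there were 13 with median centring, 0 with processed signals, 8 in Cy5 alone, 12 with no filter, 1 with the strict filter, 6 with the mean over probes, 256 with the areas kept and 12 with smaller areas left out. For Tlr7 loss with TLR9 against without it, against 5, there was 1 with the strict filter and 3 to 4 with 1 time left out, the 3 without 6 h.

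Genes 2-fold apart at 0, 6, 24 and 42 h numbered 42, 15, 8 and 15. Processed signals gave 560, 420, 409 and 528. Cy5 alone gave 70, 31, 31 and 133, split into 42 higher and 28 lower, 10 and 21, 6 and 25, and 90 and 43. No filter gave 64, 29, 14 and 23, the strict filter 21, 2, 2 and 7, and a 1.5-fold threshold 183, 103, 67 and 106. Median centring gave 24 at 24 h, 5 higher and 19 lower, and 23 at 42 h, 17 higher and 6 lower. The areas kept gave 33 at 6 h and 184 at 42 h. With genes 1.5-fold apart at 0 h set aside, 5 remained at 24 h. Processed signals split into 262 higher and 298 lower at 0 h, 235 and 185 at 6 h, 219 and 190 at 24 h, and 277 and 251 at 42 h.

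In Cy5 alone the direction turned for Cerkl (0.56), Col26a1 (0.67), Gata3 (0.52) and Nos1ap (0.08) in the response, and so for the 0 h contrast (-0.56, -0.67, -0.52 and -0.08). It also turned for E330014E10Rik (-1.34), Gm6569 (-0.94) and Ttll5 (-0.8) in the 6 h contrast and Stard6 (-0.95) in the 42 h contrast. At single times it turned for Olfr1417 (-0.12), Slc25a32 (0.61) and Fkbp8 (0.05) at 6 h, Ints6 (-0.13) at 24 h and Stard6 (-0.78) at 42 h. With processed signals it turned for Slc25a32 at 6 h (0.27) and Gm3448 at 24 h (-0.01) and 42 h (-0.2).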
